A study of Mus musculus with 32 samples.

Results

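Ba/F3 is a murine pro-B cell line that depends on interleukin 3 (IL-3), and Ba/F3-gp130 cells carry human gp130 and grow with Hyper-IL-6, a fusion of IL-6 with its soluble receptor. The Ba/F3-SyCyR(IL-23/2A) line was derived from Ba/F3-gp130 by retroviral transduction, drug selection and selection for growth on a GFP:mCherry ligand. Its synthetic receptor has separate chains, encoded in the same reading frame with a self-processing 2A peptide between them. A GFP nanobody replaces most of the extracellular part of IL-12Rβ1, and an mCherry nanobody most of that of IL-23R. The question addressed here was how far the transcriptome of this line stood from that of its parental line on the arrays that carried little Socs3 signal. Of the 32 arrays of the series, 8 were compared. These were the arrays numbered 14, 16, 18 and 20 of each of these lines, giving 4 arrays for each line. Human gp130 was present in all of them. The stated treatment of the cells was 3 h in serum-free medium and then 1 h with ligand or control supernatant. No label ties an array to a stimulus, so the even-numbered arrays are named by their numbers and by nothing else. Each receptor was represented by 1 selected line, and the effect of the receptor cannot be told apart from that of selection and culture.

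The even numbers were chosen by the measured Socs3 values. SOCS3 is a feedback inhibitor induced by STAT3, the transcription factor that IL-23 and IL-6 type receptors activate through JAK kinases. On the brighter of its probe sets, the even-numbered SyCyR(IL-23/2A) arrays read between 8.83 and 9.09 and the odd-numbered ones between 12.73 and 12.82 (RMA values, log2). In Ba/F3-gp130 the even numbers read between 8.45 and 8.66 and the odd numbers between 8.44 and 8.60. On this probe set the even-numbered SyCyR(IL-23/2A) arrays lay above all even-numbered gp130 arrays, by 0.47 on average. On the dimmer probe set the lines overlapped (7.26 to 7.43 in gp130 and 7.35 to 7.58 in SyCyR(IL-23/2A), average difference 0.12). Since Socs3 chose the arrays, it is described without a test.

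IL-23 binds a receptor of IL-12Rβ1 and IL-23R, which signal through the kinases TYK2 and JAK2. IL-3 acts through the common β chain (Csf2rb) and Il3ra and keeps parental Ba/F3 cells alive and dividing. Growth on IL-6 type ligands instead requires gp130 and STAT3.

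The labelled cell type was checked against markers. Of 27 measured pro-B cell markers, 10 had a mean over 7.04, the median probe set mean (the median level). Ptprc, the CD45 phosphatase, averaged 11.74 in gp130 and Cd79b, a chain of the B cell receptor complex, 9.83. The defining transcription factors Pax5 (6.54) and Ebf1 (5.72) and the recombinase genes Rag1 (5.99) and Rag2 (4.66) lay below that level, as did Il7r (4.67). Gata2 (13.01) and Gata1 (10.72), from the mast cell list, were among the bright markers. Of 18 measured mast cell and basophil markers, 7 lay above the median level in gp130 and 6 in SyCyR(IL-23/2A). Of 11 erythroid and megakaryocyte markers, 8 did so in each line. The marker lists thus gave incomplete cover to the pro-B label, in the same way in both lines. The summed level of the pro-B list ranged from 13.93 to 14.02 in gp130 and from 13.75 to 13.96 in SyCyR(IL-23/2A) (log2 of the summed values). In the same order, that of the mast cell and basophil list ranged from 13.83 to 14.10 and from 13.83 to 14.19.

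The 8 arrays resembled each other closely, with correlations across probe sets between 0.993 and 0.996. Counts without the arrays numbered 18 of both lines are given beside the full ones. Whether the arrays of 1 line were separate cultures is not stated for Ba/F3-gp130, so p-values measure the spread between these arrays. Adjusted p-values are those of limma with Benjamini-Hochberg adjustment over all 35556 probe sets, and a gene was called at an adjusted p under 0.05 and a difference of at least 1.5-fold.

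Few genes were called between the lines, and smaller differences can lie below the call. Of 19938 genes, 43 were higher in SyCyR(IL-23/2A) (0.216%) and 23 were lower (0.115%). The sizes of the higher genes ran from 0.60 to 3.55 with a median of 0.83, and those of the lower genes from 0.59 to 2.73 with a median of 1.00 (log2 differences). All 66 separated the 4 arrays of one line from the 4 of the other, a separation that 4.45% of all genes showed upwards and 4.06% downwards. With each array centred on its median, 49 genes were higher and 16 lower, which moved the share of higher calls from 65.2% to 75.4%. That centring shifted the median difference of all probe sets from -0.01 to 0.05. Over probe sets, gene names left aside, 59 were higher and 122 lower. Of these, 16 higher and 98 lower ones had no gene symbol, as had 12146 of all 35556 probe sets. The called probe sets without a symbol were dim, with a median level of 6.73 against 7.34 for all called probe sets. Centred arrays gave 76 and 77 probe sets and quantile normalization of the 8 arrays 66 and 80, so the share of higher probe sets rose from 32.6% to 49.7% and 45.2%.

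The number of called genes depended on single arrays. Without SyCyR(IL-23/2A) array 14, 26 genes were higher and 11 lower. Without gp130 array 16 or gp130 array 20, 28 were higher and 10 lower in each case. The lower genes also fell to 12 without SyCyR(IL-23/2A) array 16 and to 13 without gp130 array 14. Without both arrays numbered 18, 23 genes were higher and 20 lower, 21 and 14 of them among those called from all 8 arrays. Of the 15 higher and 15 lower genes with the largest differences, 13 and 8 were called whichever array was left out.

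The higher gene with the largest difference was 3830403N18Rik, which is X-linked. Its values in gp130 were 5.79, 6.97, 6.80 and 5.60 for arrays 14, 16, 18 and 20, and 9.86, 9.95, 9.81 and 9.74 in SyCyR(IL-23/2A). The parental arrays scattered over more than 1 log2 unit and the SyCyR(IL-23/2A) arrays lay close together far above them, at least 11.7-fold higher (difference 3.55 ± 0.29 SE, adjusted p = 0.0021). Here and below, "at least" marks a gene whose dimmer line averaged under 7.04, where a signal above background is not shown. Xlr, a related gene of the X-linked lymphocyte-regulated group, averaged 6.40 in gp130 and 8.33 in SyCyR(IL-23/2A), did not overlap between the lines and missed the call (adjusted p = 0.11).

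Tspan8, a tetraspanin of the plasma membrane, read 6.36, 6.74, 6.05 and 6.17 in gp130 and 8.55, 8.99, 8.38 and 8.07 in SyCyR(IL-23/2A). Every SyCyR(IL-23/2A) array exceeded every gp130 array, by at least 4.5-fold on average (2.17 ± 0.21 SE, adjusted p = 0.0044). Il2ra encodes CD25, the α chain that raises the affinity of the IL-2 receptor. It read 7.79, 7.81, 7.75 and 7.88 in gp130 and 10.13, 9.13, 9.47 and 8.87 in SyCyR(IL-23/2A). The parental arrays were almost equal and the SyCyR(IL-23/2A) arrays spread widely above them, array 14 highest (1.59 ± 0.23 SE, adjusted p = 0.023). The call remained without SyCyR(IL-23/2A) array 14 (1.35) or array 20 (1.77) and was lost on leaving out any of the other 6 arrays. It was lost as well in a fit with the array number as a block. Il2rb, the β chain of the same receptor, differed by 0.28 and was not called (adjusted p = 0.39).

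Further called genes encode receptors and other membrane proteins. Clec5a, a myeloid C-type lectin receptor, was at 5.07, 5.50, 5.28 and 5.14 in gp130 and at 6.98, 6.93, 6.30 and 6.82 in SyCyR(IL-23/2A), both below the median level and without overlap (1.51 ± 0.16 SE, adjusted p = 0.0067). Fcgr2b, the inhibitory receptor for IgG, was at 8.49, 8.54, 8.86 and 8.59 against 10.65, 9.73, 9.74 and 9.54. Array 14 stood above the remaining SyCyR(IL-23/2A) arrays, and without it the difference fell from 1.29 to 1.05 with the call kept. Besides that setting, only the one without SyCyR(IL-23/2A) array 20 kept the Fcgr2b call when arrays were left out in turn. A fit with the array number as a block lost it too. Tgfbr3, the TGF-β co-receptor betaglycan, differed by 1.38 ± 0.11 SE (at least 2.6-fold, adjusted p = 0.0017), and Gapt, an adaptor of the B cell membrane that binds GRB2, by 1.55 ± 0.14 SE (adjusted p = 0.0026). Among the smaller calls, the chemokine receptor Ccr4 differed by 1.01, the fatty acid receptor Gpr84 by 0.75 and Cd79a, the Igα chain of the B cell receptor, by 0.83.

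**Figure D1:**
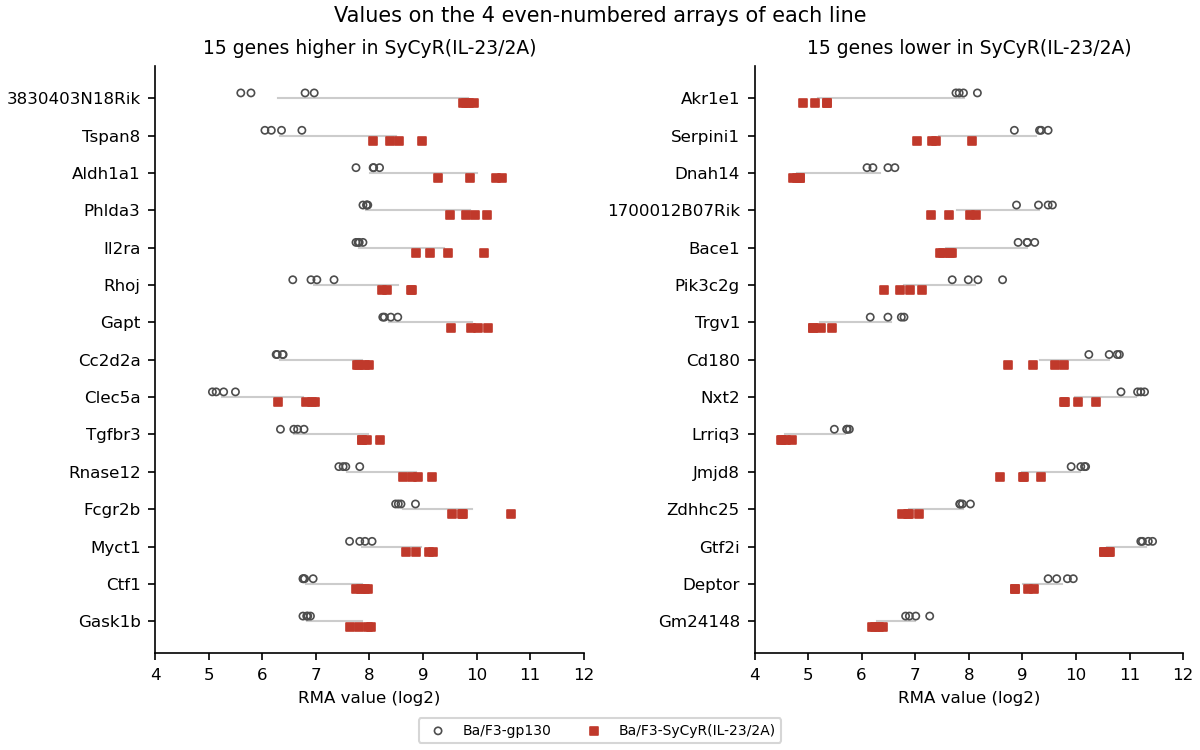
RMA values (log2, horizontal axis) of the 15 genes with the largest higher and the 15 with the largest lower differences on the 4 even-numbered arrays of each line. Open circles are Ba/F3-gp130 arrays, filled squares Ba/F3-SyCyR(IL-23/2A) arrays and grey lines join the means; no gene overlaps between the lines, and the widest gap is that of 3830403N18Rik.

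Phlda3 encodes a pleckstrin homology domain protein that restrains AKT and is a target of p53. It read 7.95, 7.88, 7.95 and 7.97 in gp130 and 9.98, 10.19, 9.51 and 9.80 in SyCyR(IL-23/2A). The parental values were tight and the shift was several times the spread of either line (1.93 ± 0.13 SE, 3.81-fold, adjusted p = 0.00067). Aldh1a1, which oxidizes retinaldehyde to retinoic acid, read 8.07, 8.19, 8.08 and 7.75 in gp130 and 9.29, 10.37, 9.87 and 10.48 in SyCyR(IL-23/2A), so that the lowest SyCyR(IL-23/2A) array was more than 1 log2 unit above the highest parental one (1.98 ± 0.24 SE, adjusted p = 0.013). Without both arrays numbered 18, Aldh1a1 differed by 2.05 and was no longer called.

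Cc2d2a, a protein of the ciliary transition zone, showed the tightest large difference, from 6.39, 6.38, 6.28 and 6.26 in gp130 to 7.92, 7.76, 7.99 and 7.80 in SyCyR(IL-23/2A). The groups lay more than 1 log2 unit apart, at least 2.91-fold (1.54 ± 0.07 SE, adjusted p = 9e-05). Rnase12, of the RNase A family, differed by 1.30 ± 0.12 SE and Myct1, named as a Myc target, by 1.11 ± 0.13 SE. Ctf1 encodes cardiotrophin-1, a cytokine of the IL-6 family that signals through gp130. It averaged 6.81 in gp130 and 7.87 in SyCyR(IL-23/2A) (1.05 ± 0.07 SE, at least 2.08-fold, adjusted p = 0.00067), with gp130 array 20 (6.95) above the remaining parental arrays. Gask1b, a Golgi-associated kinase family member, differed by 1.02 ± 0.09 SE. The aldo-keto reductase Akr1b8 rose from 7.96 to 8.91 (0.94 ± 0.06 SE, adjusted p = 0.00048).

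Genes lower in SyCyR(IL-23/2A) were led by Akr1e1, another aldo-keto reductase. It read 8.16, 7.90, 7.82 and 7.76 in gp130 and 5.35, 4.90, 5.35 and 5.12 in SyCyR(IL-23/2A). The gene thus passed from above the median level to below it, a fall of at least 6.64-fold (-2.73 ± 0.12 SE, adjusted p = 9e-05). Serpini1, the protease inhibitor neuroserpin, read 9.48, 9.32, 8.85 and 9.35 in gp130 and 7.38, 8.06, 7.32 and 7.03 in SyCyR(IL-23/2A), without overlap (-1.80 ± 0.22 SE, adjusted p = 0.012). Bace1, the β-secretase, read 9.23, 9.09, 8.92 and 9.09 against 7.46, 7.68, 7.52 and 7.65. Its arrays were tight in both lines and more than 1 log2 unit apart (-1.51 ± 0.08 SE, adjusted p = 0.00026).

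Pik3c2g, a class II phosphoinositide 3-kinase, averaged 8.12 in gp130 and 6.79 in SyCyR(IL-23/2A) (-1.33 ± 0.21 SE, adjusted p = 0.03), and its call held only without gp130 array 18 when arrays were left out in turn. Cd180, a Toll-like surface receptor of B cells, read 10.81, 10.77, 10.24 and 10.62 in gp130 and 9.61, 9.77, 9.20 and 8.74 in SyCyR(IL-23/2A). All SyCyR(IL-23/2A) arrays were below the parental ones (-1.28 ± 0.22 SE, adjusted p = 0.041), and this call too held only without gp130 array 18. Deptor, an inhibitor of mTOR, differed by -0.72 (adjusted p = 0.039), again called only without gp130 array 18 among the settings with 1 array removed. Pde3b, a cAMP phosphodiesterase, differed by -0.64 (adjusted p = 0.013) and lost its call only without SyCyR(IL-23/2A) array 20.

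The transcriptional regulator Gtf2i (TFII-I) was a bright gene that fell by 0.73 on the log2 scale, from 11.43, 11.35, 11.24 and 11.21 in gp130 to 10.62, 10.64, 10.52 and 10.53. The lines were separated by several times their spread (SE 0.06, adjusted p = 0.0025). Further lower genes were Dnah14, a dynein heavy chain (-1.55 ± 0.11 SE), Trgv1, a variable segment of the T cell receptor γ locus (-1.32 ± 0.14 SE), Nxt2, of the nuclear RNA export machinery (-1.13 ± 0.15 SE), Lrriq3 (-1.10 ± 0.08 SE), Jmjd8 (-1.09 ± 0.15 SE), the palmitoyltransferase family member Zdhhc25 (from 7.90 to 6.89), 1700012B07Rik (-1.54 ± 0.21 SE) and Gm24148 (-0.71 ± 0.10 SE). Dnah14, Lrriq3 and Trgv1 were dim in the parental line already, at 6.35, 5.68 and 6.55. For Nxt2, 1700012B07Rik and Gm24148 the call was lost on leaving out 3 of the 8 arrays, and for Jmjd8 on leaving out 2. Kansl1 was called on 1 probe set (-0.79) that is not its brightest, and the brightest differed by -0.09 (adjusted p = 0.45), so it is not counted.

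STAT factors bind DNA at TTCNNNGAA, which reads the same on both strands. RefSeq promoters of assembly GRCm38.p6, from 250 bases before to 50 after the gene start, were found for 38 of the 43 higher and 15 of the 23 lower genes. The motif was in 2 of 46 promoters of the higher genes (4.35%), those of Pros1 and Prkd3, and in 4 of 19 promoters of the lower genes (21.1%), those of 1700109H08Rik, Gtf2i, Lamb2 and Pik3c2g. Among all 19177 promoters of measured genes 7.66% held it. Motifs of NF-κB, Ets, E-box, AP-1, GATA, PU.1 and p53 were counted in the same promoters too. The STAT counts are thus a small part of several looks, and no enrichment was tested. Promoters from both directions are shown because STAT3 is the factor downstream of these receptors, with the matching letters in capitals. Pros1 encodes the anticoagulant protein S (0.83 ± 0.06 SE, adjusted p = 0.0013) and Prkd3 protein kinase D3 (0.78 ± 0.12 SE, adjusted p = 0.027), both higher, and Gtf2i and Pik3c2g were lower.
Pros1, chr16:62854057-62854356, plus strand: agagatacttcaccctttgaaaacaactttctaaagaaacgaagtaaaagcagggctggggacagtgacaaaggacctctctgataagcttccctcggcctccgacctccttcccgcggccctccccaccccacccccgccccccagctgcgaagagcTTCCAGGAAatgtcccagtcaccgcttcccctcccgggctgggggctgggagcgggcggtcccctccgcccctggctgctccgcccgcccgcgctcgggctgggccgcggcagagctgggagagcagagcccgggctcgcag
Prkd3, chr17:79008456-79008755, minus strand: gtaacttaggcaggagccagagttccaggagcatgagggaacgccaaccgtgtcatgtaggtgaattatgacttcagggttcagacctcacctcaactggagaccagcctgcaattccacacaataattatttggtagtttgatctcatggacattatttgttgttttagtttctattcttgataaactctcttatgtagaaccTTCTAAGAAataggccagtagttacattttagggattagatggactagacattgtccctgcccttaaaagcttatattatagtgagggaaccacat
Gtf2i, chr5:134314711-134315010, minus strand: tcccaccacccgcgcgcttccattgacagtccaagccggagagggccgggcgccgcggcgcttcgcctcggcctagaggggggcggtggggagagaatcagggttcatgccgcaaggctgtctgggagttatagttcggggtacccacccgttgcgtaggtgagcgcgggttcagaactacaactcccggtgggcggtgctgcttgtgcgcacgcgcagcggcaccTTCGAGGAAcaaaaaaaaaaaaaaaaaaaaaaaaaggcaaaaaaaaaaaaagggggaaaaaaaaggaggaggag
Pik3c2g, chr6:139613822-139614121, plus strand: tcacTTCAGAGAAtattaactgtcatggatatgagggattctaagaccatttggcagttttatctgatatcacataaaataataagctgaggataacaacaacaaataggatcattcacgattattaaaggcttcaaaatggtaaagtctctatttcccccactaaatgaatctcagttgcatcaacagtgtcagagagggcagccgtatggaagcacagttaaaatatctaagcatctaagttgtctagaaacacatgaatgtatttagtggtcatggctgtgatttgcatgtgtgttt
The Pik3c2g match lay near the far end of the window and the Gtf2i match close to the gene start, 246 and 24 bases before it. A match of letters describes the sequence and does not show binding.

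The odd-numbered arrays gave a further set of 4 and 4 arrays of the same lines, none of which entered the even comparison. Whether odd and even arrays shared cultures is not given. There 199 of 19938 genes were called (0.998%), with Socs3 high in SyCyR(IL-23/2A) and not in gp130. All 43 higher and all 23 lower genes kept their sign, and 36 and 19 of them were called again, together 55 of 66 (83.3%). Their groups did not overlap for 41 and 22 genes, and the share of all genes without overlap on odd numbers was not counted. The median size was 0.81 against 0.83 for the higher and 1.11 against 1.00 for the lower genes.

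Single genes show how close the pairs of values were. Akr1e1 differed by -2.73 on even and -2.88 on odd numbers, Bace1 by -1.51 and -1.49, Cc2d2a by 1.54 and 1.51, and Tspan8 by 2.17 and 2.09. Rnase12 stood at 1.30 and 2.00 and Clec5a at 1.51 and 2.09, larger on odd numbers. Neither was called in the interaction test of limma (even minus odd -0.71 and -0.58, adjusted p = 0.33 and 0.81). Pim2, a survival kinase and STAT3 target, stood at 0.64 and 1.71. The 11 genes not called on odd numbers were Igsf6, Adm2, Gpr84, Btd, Adgrg3, Gdf3, Lmo2, 2610005L07Rik, Lamb2, Cfap74 and Gm24148. Over all genes, 64 differed between the even and the odd comparison (0.321%), a split that Socs3 chose. Even minus odd was above 0 for 1 of them and below 0 for 63.

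**Figure D2:**
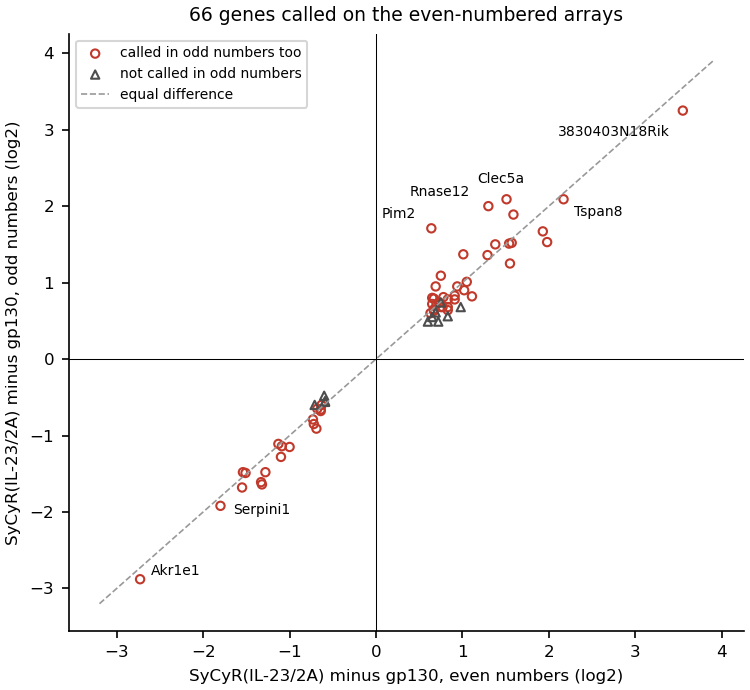
Difference between SyCyR(IL-23/2A) and gp130 (log2) of the 66 called genes on the even-numbered arrays (horizontal) and the odd-numbered arrays (vertical), 4 arrays a line in each. Circles were called in both and triangles on even numbers only; all 66 points lie in the quadrants of equal sign, and Pim2 (0.64 and 1.71) lies farthest above the dashed line of equal difference.

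The 2 other receptor lines showed which differences were particular to SyCyR(IL-23/2A). They were Ba/F3-IL-12Rβ1-IL-23R, with the natural receptor chains, and Ba/F3-SyCyR(IL-23R), a synthetic IL-23R receptor, with 4 even-numbered arrays each. Their differences from gp130 rest on the same gp130 arrays and are given side by side, whereas SyCyR(IL-23/2A) was tested against each of them directly. In these tests 2.59% of all genes were called against the natural receptor line and 0.828% against SyCyR(IL-23R). Of the 66 genes, 15 also differed from both other lines in the same direction, and 16 differed from neither. The tests reuse the 4 SyCyR(IL-23/2A) arrays on which the 66 genes were picked, so their p-values are not separate evidence.

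The 7 higher genes of this kind were Phlda3, Il2ra, Cc2d2a, Akr1b8, Adm2, Adgrg3 and Mybpc3. With 1 of the 8 arrays left out in turn, the difference from gp130 was called 8 times for Phlda3, Cc2d2a and Akr1b8, 4 times for Adm2, 2 times for Il2ra, 1 time for Adgrg3 and 0 times for Mybpc3. Phlda3 stood at a median of 7.67 in the natural receptor line and 8.06 in SyCyR(IL-23R), close to gp130, and SyCyR(IL-23/2A) exceeded them by 2.16 and 1.75 (adjusted p = 2.2e-08 and 1.6e-06). Il2ra ranged from 7.45 to 8.40 in the natural receptor line and from 7.28 to 8.09 in SyCyR(IL-23R), both below the lowest SyCyR(IL-23/2A) array of 8.87 (differences 1.54 and 1.73, adjusted p = 0.00077 and 0.0012). Cc2d2a exceeded the other lines by 1.98 and 1.71 (adjusted p = 4.6e-10 and 1.7e-08).

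The 8 lower genes were Pde3b, Gtf2i, Zdhhc25, Jmjd8, Cd180, Bace1, 1700012B07Rik and Serpini1. Of these, 1700012B07Rik averaged below gp130 in the natural receptor line as well (-0.83), so its fall was shared in part. SyCyR(IL-23/2A) differed from that line by -0.70 (adjusted p = 0.035). Bace1 lay between 8.84 and 9.17 in the natural receptor line and between 8.63 and 8.76 in SyCyR(IL-23R), above every SyCyR(IL-23/2A) array (differences -1.42 and -1.13, adjusted p = 1.3e-08 and 1.2e-06). Serpini1 differed by -1.45 and -1.70 (adjusted p = 0.00016 and 0.0002) and Gtf2i by -0.72 and -0.59 (adjusted p = 1.4e-05 and 0.00048). Cd180 was highest in the natural receptor line, with a median of 11.45, and SyCyR(IL-23/2A) was below it and below SyCyR(IL-23R) (differences -2.10 and -0.86, adjusted p = 3.6e-06 and 0.031).

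Other differences were present in the other receptor lines too. 3830403N18Rik stood 3.55 above gp130 in SyCyR(IL-23/2A), 4.07 in the natural receptor line and 3.25 in SyCyR(IL-23R), and SyCyR(IL-23/2A) was called against neither (differences -0.52 and 0.30, adjusted p = 0.23 and 0.68). Dnah14 stood at -1.55, -1.56 and -1.57 in the same order and Lrriq3 at -1.10, -1.07 and -1.10. In these genes it was gp130 that stood apart from all lines with a further receptor. Akr1e1 followed another pattern, at -2.73 in SyCyR(IL-23/2A), -2.71 in the natural receptor line and 0.91 in SyCyR(IL-23R), where it was brightest with a median of 8.79. SyCyR(IL-23/2A) and the natural receptor line differed by -0.02 ± 0.12 SE (adjusted p = 0.96).

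Several higher genes stood between gp130 and at least the natural receptor line. Aldh1a1 was lower in SyCyR(IL-23/2A) than in the natural receptor line (-3.09, adjusted p = 9.6e-08) and than in SyCyR(IL-23R) (-1.15, adjusted p = 0.0076). Tspan8 (-2.08) and Gask1b (-2.90) were lower than in the natural receptor line (adjusted p = 8.3e-07 and 6.9e-12). Against SyCyR(IL-23R), Tspan8 was not called (0.23, adjusted p = 0.64) and Gask1b was higher (1.10, adjusted p = 4.5e-06). Trgv1, lower than gp130 in SyCyR(IL-23/2A), stood at 2.09 from gp130 in the natural receptor line and at -1.63 in SyCyR(IL-23R).

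**Figure D3:**
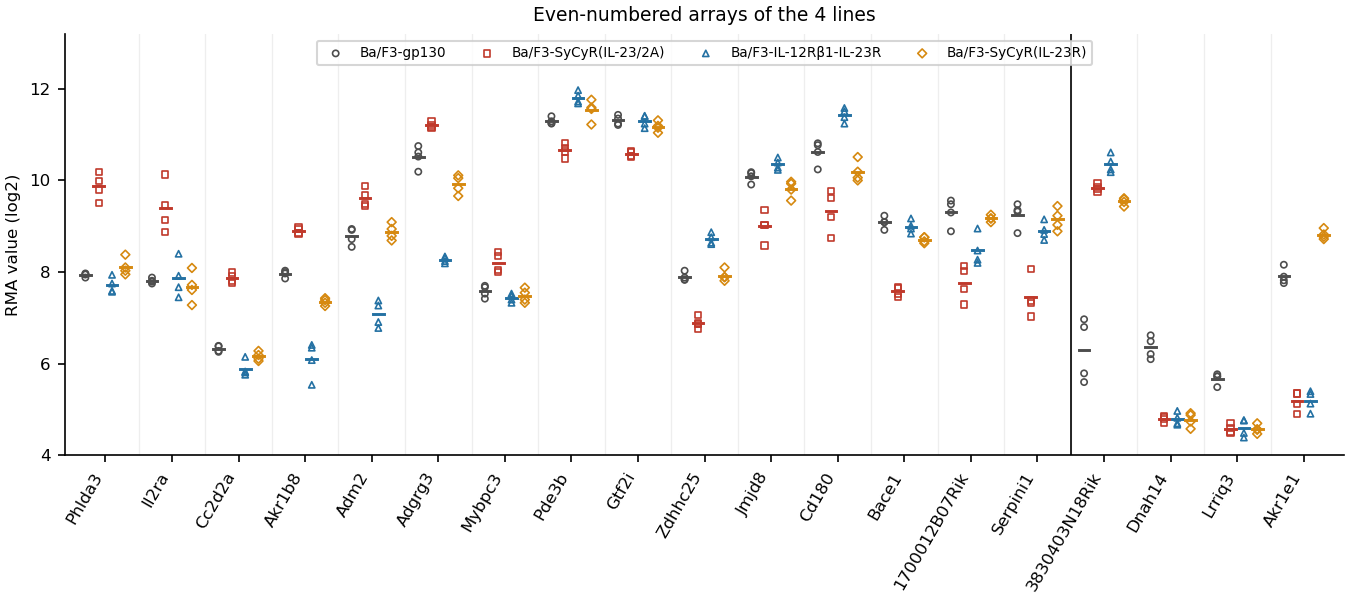
RMA values (log2) on the 4 even-numbered arrays of each of the 4 lines, with bars at the means. Left of the vertical line are the 15 genes in which SyCyR(IL-23/2A) differed from gp130 and from both other receptor lines in the same direction; to its right 3830403N18Rik, Dnah14 and Lrriq3, where gp130 stands alone, and Akr1e1, where SyCyR(IL-23/2A) and IL-12Rβ1-IL-23R are low.

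Receptor genes of the study's own pathway were not called. Of IL-23R and IL-12Rβ1, the synthetic chains hold only a short extracellular stretch and the transmembrane and intracellular parts. Il23r read 6.78, 6.41, 6.55 and 6.60 in gp130 and 6.07, 6.34, 6.67 and 6.19 in SyCyR(IL-23/2A), with overlap (-0.26 ± 0.13 SE, adjusted p = 0.4). Il12rb1 read 8.16, 8.11, 7.84 and 8.00 against 8.17, 8.26, 8.18 and 8.17, just apart (0.17 ± 0.07 SE, adjusted p = 0.33). The probe sets of both genes read 13.23 and 12.56 (medians) in the line with the natural chains, far above either line compared here. Which part of a chain the probes cover was not analysed here, and these genes do not check the label of the synthetic receptor. Il6st, mouse gp130, differed by -0.05 ± 0.07 SE, Csf2rb by -0.05 ± 0.08 SE and Il3ra by -0.06 ± 0.10 SE, all overlapping. For Il6st and Csf2rb the sign turned when arrays were centred (0.02 and 0.01).

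Gene lists were described by counts beside the background given above. Of 26 lists, 8 had a called member and 18 had none. The median difference over all genes was 0.00. At an unadjusted p under 0.05, 6.41% of all genes were higher and 6.05% lower, against which such counts for lists are to be read. Without Socs3, which chose the arrays, 25 STAT3 targets and SOCS genes had a median of 0.08, with 18 members above 0. Pim2 alone was called, from 9.73, 9.55, 9.38 and 9.89 to 10.28, 10.33, 10.14 and 10.35, without overlap (0.64 ± 0.11 SE, adjusted p = 0.039). That call held only without gp130 array 20 among the settings with 1 array removed. At an unadjusted p under 0.05, 8 members were higher and 3 lower. Myc, at -0.29, was among those without overlap. As a STAT3 target chose the arrays, this list is a description.

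Other signaling lists had no called member in limma. None of 12 members of the IL-23, IL-12 and IL-6 receptor system was called (median -0.03, 1 higher and 1 lower at an unadjusted p under 0.05), and none of 5 IL-3, GM-CSF and IL-5 receptor chains (median -0.08, 0 and 0), where Csf2rb2 differed most (-0.16). The 9 JAK kinases and STAT factors had a median of -0.02 with 0 higher and 2 lower at that threshold, and Jak1 differed most (-0.16). The 33 ERK immediate early and feedback genes had a median of 0.07 (2 and 0), and Ier3 differed by 0.52 (adjusted p = 0.12). NF-κB response genes (17 measured) had a median of 0.07 (2 and 1) and interferon response genes (21) of 0.03 (2 and 1), where Usp18 differed most (-0.22). Rel, an NF-κB subunit, differed by -0.48 without overlap (adjusted p = 0.058). Nucleic acid sensing genes (16) had a median of -0.01 (1 and 1), with Cgas, the cytosolic DNA sensor, at -0.36 (adjusted p = 0.07). Of 23 other cytokine and growth factor receptors only Il2ra was called, with a list median of 0.00.

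Among markers of granulocytes and macrophages Clec5a alone was called. Of 31 measured members, 22 were above 0 and the median was 0.11. At an unadjusted p under 0.05, 6 were higher and 0 lower, and 5 were higher and 0 lower without overlap. The summed level ran from 12.85 to 13.41 in gp130 and from 13.28 to 13.70 in SyCyR(IL-23/2A), which overlap. By their mean over the 8 arrays, 9 of the 31 lay above the median level of all probe sets. In gp130 the defining markers Ly6g (4.63), S100a8 (5.47), Csf1r (6.52), Itgam (5.99) and Adgre1 (5.47) lay below it. Cxcr2, a neutrophil chemokine receptor, read 8.88, 8.95, 7.89 and 8.50 in gp130 and 9.76, 10.08, 9.26 and 9.85 in SyCyR(IL-23/2A). The groups did not overlap, with array 18 lowest in both lines, and the difference of 1.18 missed the call (adjusted p = 0.071); it was called at 1.12 without both arrays numbered 18. The part of these markers in the higher immune genes was not tested.

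In the remaining marker lists, 1 of 27 pro-B members was called, Cd79a, from 9.57, 9.53, 9.17 and 9.28 to 10.21, 10.51, 10.12 and 10.05. All SyCyR(IL-23/2A) arrays were above the parental ones (adjusted p = 0.024), and the list median was -0.02. Cd79a lost its call on leaving out 3 of the 8 arrays or both arrays numbered 18. No member was called of 18 mast cell and basophil (median -0.02, 1 higher and 1 lower at an unadjusted p under 0.05), 16 T cell (0.01, 0 and 0) or 11 erythroid and megakaryocyte markers (-0.04, 1 and 0). The largest differences in these lists were those of Fcer1a (0.48), Gata3 (0.12) and Epor (0.30). Of 23 chemokines and chemokine receptors none was called (-0.07, 1 and 1).

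Lists of cell state were mostly centred near 0. Cell cycle genes (20 measured) had a median of 0.00 with none called (1 higher and 3 lower at an unadjusted p under 0.05), Bcl2 family genes (13) of 0.01 (1 and 2), glycolysis and hypoxia genes (24) of 0.04 (4 and 1) and ATF4 amino acid response genes (21) of 0.01 (2 and 0). G protein signaling genes (22) had a median of 0.02 (4 and 2) and the 12 commonly used reference genes of 0.02 (0 and 0). Among the members with the largest differences, none called, were Bcl2l1 (0.26), Ddit4 (0.34), Slc7a11 (0.64) and, of the reference genes, Gusb (0.11). Of 24 cholesterol and fatty acid synthesis genes 22 were above 0, with a median of 0.19 on even and 0.12 on odd numbers and none called (10 higher and 0 lower at an unadjusted p under 0.05). Their largest difference was that of Lss, lanosterol synthase, at 0.46 (adjusted p = 0.15), and Pmvk, Mvd, Mvk and Fdps did not overlap between the lines.

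The remaining lists held genes already described. Of 34 glutathione, aldo-keto reductase and xenobiotic genes, Akr1b8 was higher and Akr1e1 lower, with a list median of 0.03. Of 35 tetraspanins, integrins and adhesion molecules Tspan8 was called (median -0.05), and Cd48, a SLAM family adhesion receptor, differed by -0.78 without overlap (adjusted p = 0.098). Of 18 serpins and protease inhibitors Serpini1 was called (median -0.02), and of 11 X-linked lymphocyte-regulated and germ cell genes 3830403N18Rik (median 0.06). Several of these lists were drawn up with such members in view, and their counts add no separate evidence.

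**Figure D4:**
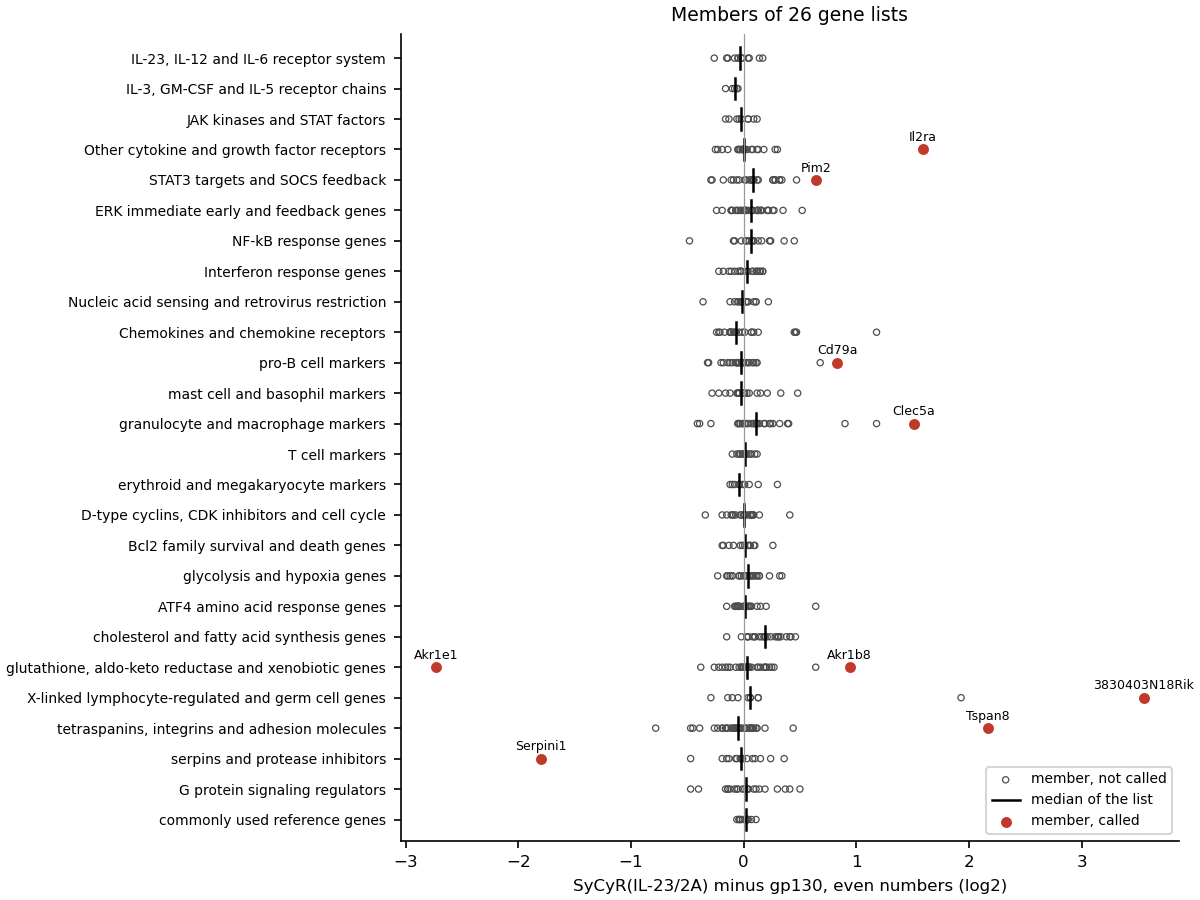
Difference between SyCyR(IL-23/2A) and gp130 on even-numbered arrays (log2, horizontal axis) for each measured member of 26 gene lists, with a black bar at the list median. Filled red points are called members and open points members not called; all but the 9 named members are uncalled, and the cholesterol list has the highest median (0.19).

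The position of the called genes was examined by order along the chromosomes of assembly GRCm38.p6. None of the 30 genes with the largest differences had a called neighbour. Xlr, which is next to 3830403N18Rik, was higher by 1.93 and missed the call (adjusted p = 0.11). Among the smaller calls, Hacl1, Btd and Ankrd28 are adjacent on chromosome 14 and were all higher, a run noticed after the values were seen. Hacl1, a peroxisomal lyase of fatty acid oxidation, differed by 0.91 ± 0.10 SE, Btd, which recycles biotin, by 0.72 ± 0.05 SE and Ankrd28, a subunit of protein phosphatase 6, by 0.73 ± 0.09 SE (adjusted p = 0.0075, 0.001 and 0.013). The genes on either side, Colq (-0.02) and Galnt15 (0.04), were not called. In the natural receptor line the same genes stood 1.53, 0.88 and 0.80 above the shared gp130 arrays, and in SyCyR(IL-23R) they stood at -0.01, 0.25 and -0.06.

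**Figure D5:**
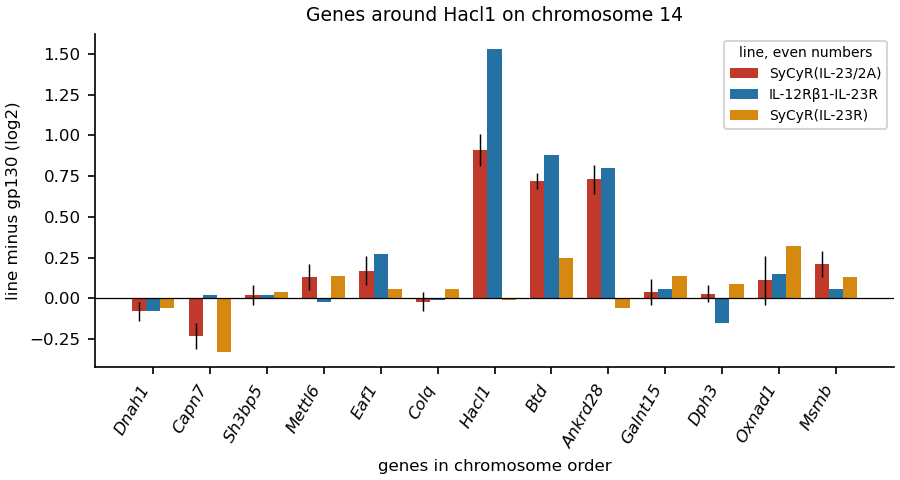
Difference from gp130 on even-numbered arrays (log2, vertical axis) of 13 genes in order along chromosome 14, for SyCyR(IL-23/2A) (with SE bars) and the 2 other receptor lines. Hacl1, Btd and Ankrd28 stand between 0.72 and 1.53 in SyCyR(IL-23/2A) and IL-12Rβ1-IL-23R, between neighbours near 0.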

How the data were processed

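The arrays were of the Affymetrix Mouse Gene ST type. The authors ran RMA with sketch-quantile normalization in Expression Console (its version was not found in the sources) and deposited log2 values of 35556 probe sets for 32 arrays. No per-sample column was left unused (0). Per the study's methods, cells were starved for 3 h and exposed for 1 h to ligand at 100 ng/ml or control supernatant, and 150 ng RNA was labelled. The labels tie no array to a stimulus.

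From the deposited values, lmFit and eBayes of limma (version 3.58.1, under R 4.3.3), without covariates, compared the lines on 8 even-numbered arrays over all probe sets. The 2 other receptor lines were compared in a fit of all 16 even-numbered arrays, and the even and odd comparisons in a fit of 16 arrays of 2 lines. Calls were made at 1.5-fold and a p under 0.05 after Benjamini-Hochberg adjustment. The study used 1.5-fold with p of at most 0.01. Symbols came from the platform annotation (21789 probe sets with 1, 1621 with several, 12146 with none), and a gene took its brightest probe set. No detection calls were used, and the number of arrays limits precision. Tables came from Python 3.11.15 (pandas 2.3.3, numpy 2.4.6) and figures from matplotlib 3.10.9.

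Genes were named by rule: the 15 higher and 15 lower called genes with the largest differences and no overlap, Socs3 and 5 receptor genes, and up to 4 called members of each of 26 lists or its largest difference, and called neighbours. Further genes were named after their values were seen. The values of 1 gene that the rule names are not reported in the text. Members, lists and tests were chosen with earlier results of these data known. Alternatives were other scalings, filters, priors, thresholds, the array number as a block and leaving out arrays.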

Additional observations from a re-analysis of the deposited data

Results flagged for a closer look

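Among 178 groups of 4 arrays tested for the 89 genes of the tables, 7 held an array far from the other 3, and chance gives about 1 in 20 such groups. Array 20 of gp130 was high for Ctf1 (6.95, with the nearest arrays between 6.76 and 6.79) and for Fitm1, which promotes lipid droplet formation (7.04). Array 18 of gp130 was high for Gpr84 (7.80). Array 16 of SyCyR(IL-23/2A) was low for Fitm1 (7.35), for the importin Ipo8 (10.73) and for Tbrg3 (7.17). Array 14 of SyCyR(IL-23/2A) was high for Gpr65, an acid-sensing receptor (5.42, with the other 3 arrays between 4.58 and 4.67), at a level below the median of the array.

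For 3 of the named genes outside the STAT3 target list the difference between the lines was not the same on even as on odd numbers by the interaction test in limma, over a split of the arrays that Socs3 chose. Ier3, an immediate early gene, differed by 0.52 on even and 3.21 on odd numbers (-2.69), and Cdkn2d, a CDK4 and CDK6 inhibitor, by 0.41 and 2.12 (-1.71). The paper lists Ier3 with Socs3 among the top upregulated molecules of each receptor line, and Cdkn2d among those of SyCyR(IL-23R). The split by Socs3 thus bears on both genes, and their values are a description. Cgas differed by -0.36 and 0.33 (-0.69).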

How the results depend on the processing

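Alternatives were applied one at a time. For probe sets (59 higher, 122 lower) the counts were 35 higher without both arrays numbered 18, 93 and 391 at the unadjusted p of the study's methods, 16 and 27 at a 2-fold limit and 136 and 223 with no fold limit. The lower count was 77 with centred arrays, 80 with quantile normalization, 79 above the median level and 31 over probe sets with a symbol. Leaving out each array in turn gave 36 to 51 higher and 36 to 122 lower probe sets, and 26 to 35 higher and 10 to 25 lower genes. Genes (43 higher, 23 lower) were 23 higher without both arrays numbered 18, 16 and 12 at a 2-fold limit and 89 and 52 with no fold limit. On odd numbers 414 probe sets were lower, with 203 to 446 on leaving out an array. Of the even minus odd comparison, 5 probe sets were higher and 71 lower. The higher count was 3 with the block, 3 without arrays 17 and 18, and 2 to 7 on leaving out an array. Il6st turned sign with centred arrays (0.02), quantile normalization (0.01) and without gp130 array 18 (0.01), and Csf2rb with centred arrays (0.01) and without SyCyR(IL-23/2A) array 20 (0.01), none of them called. On leaving out an array, Il6st ran from -0.09 to 0.01 and Csf2rb from -0.10 to 0.01. Cfap74 was not called on its dimmer probe set (-0.13). The 166 other counts stayed within 1.5 times. Among values of single genes and lists, 2312 stayed on their side of the threshold, 280 lost it, 6 passed it and 44 moved, and the causes were not tested. The fit with the array number as a block gave 51 higher and 102 lower probe sets, and 38 and 24 genes, 34 and 21 of them shared. The 11 calls lost with the block were those of Adgrg3, Cltrn, Fcgr2b, Gpr84, Igsf6, Il2ra, Lmo2, Mefv, Mmp19, Cfap74 and Zfp950, and Cxcr2 was called (1.18, adjusted p = 0.028). The labels do not say that a number pairs arrays. Deviations of same-numbered even arrays correlated at 0.126, 0.210, 0.203 and 0.025 for 14, 16, 18 and 20, and 3 of 4 gp130 arrays and 3 of 4 SyCyR(IL-23/2A) arrays correlated best with their own number. Even arrays of unlike number correlated between -0.181 and 0.06 (median -0.048), against a median of 0.164 for like numbers. On odd numbers the medians were -0.091 for unlike and 0.126 for like numbers. These values hint at pairs in part of the arrays, but not every pair passed 0.1, and the numbers were not taken as pairs. The 11 calls named above depend on that choice.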

Other observations

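Some called genes not described above are known from innate immunity. Mefv, which encodes pyrin, differed by 0.75 (adjusted p = 0.045), Casp4, the inflammatory caspase that senses lipopolysaccharide, by 0.69 (adjusted p = 0.031), Hp, haptoglobin, by 0.83 (adjusted p = 0.0055) and the metalloproteinase Mmp19 by 0.67 (adjusted p = 0.034). With each of the 8 arrays left out in turn, Hp was called 8 times, Mefv 2 times, and Casp4 and Mmp19 1 time each. Hp and Casp4 stood higher still in SyCyR(IL-23R), at 1.82 and 1.42 above gp130, and lower in the natural receptor line, at 0.20 and 0.34, with the gp130 arrays shared by all of these. The adhesion G protein-coupled receptor Adgrg3 was 0.69 above gp130, whereas it stood at -2.25 in the natural receptor line and at -0.60 in SyCyR(IL-23R).

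Lmo2, a hematopoietic transcription cofactor, differed by 0.60 (adjusted p = 0.018), the zinc finger factor Hivep1 by 0.70 (adjusted p = 0.0084) and Gdf3, a TGF-β family ligand, by 0.65 (adjusted p = 0.0019). All of these were above gp130 in the 2 other receptor lines as well, with Lmo2 at 0.89 and 0.67, Hivep1 at 0.44 and 0.35, and Gdf3 at 0.57 and 0.23. Tdrd9, of the piRNA pathway, was 0.67 above gp130 here (adjusted p = 0.015), 0.77 above it in the natural receptor line and at -2.29 in SyCyR(IL-23R). With arrays left out in turn, Hivep1 and Gdf3 were called 8 times, Tdrd9 7 times and Lmo2 2 times. These genes were picked after their values were seen.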
